A study of Homo sapiens with 9 samples.

Results

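The genes described here encode the aminoacyl-tRNA synthetases, the enzymes that join each amino acid to its tRNA before protein synthesis. Members were taken from the deposited table by symbol, among protein-coding genes. Cytosolic members carry an amino acid letter before ARS, or are EPRS, FARSA or FARSB, and mitochondrial members have a symbol ending in ARS2. The pattern found 37 genes, 20 cytosolic and 17 mitochondrial. The 4 whose row lies on an alternate locus or patch sequence, CARS, VARS, VARS2 and SARS2, were left out, which left 33 of 45754 genes, 18 cytosolic and 15 mitochondrial. Symbols are those of the table, where AARS stands for the gene now called AARS1, and likewise for the other cytosolic enzymes except FARSA and FARSB.

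RNA was sequenced in 9 libraries of human cells labelled H441, a lung adenocarcinoma line. Cells had been given the compound RSGL at 10 µM, the compound BSGL at 10 µM, or 0.1% DMSO as solvent control, each for 24 h, with 3 libraries per group. The treatment note speaks of 1 replicate, and nothing in the labels makes the 3 libraries separate cultures. The p-values therefore rest on the variation among libraries, which could be technical. Libraries held 16720414 to 18738947 fragments in genes.

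The identity of the cells is uncertain. A genotype tag names A549 for the RSGL libraries and H460 for the BSGL and control libraries, so compound and the line named in that tag cannot be told apart by the design. Of 9 surfactant, secretory and other genes that mark the lung lineage, 0 passed the filter on low values, and SFTPB, a surfactant protein, did not exceed 0.0390 FPKM. Of 12 genes known to be high in lung lines with mutant KEAP1, 11 passed. That list summed to 2366 to 2444 FPKM in RSGL, 3999 to 4082 FPKM in BSGL and 4286 to 4395 FPKM in control libraries. ALDH1A1 made 746 to 780 FPKM of it in RSGL and 1920 to 2001 FPKM in control. TXNRD1 went the other way, at 454 to 487 FPKM in RSGL and 420 to 435 FPKM in control, and the libraries of AKR1C1 overlapped. Between RSGL and control, 0 genes reached a mean of 5 FPKM in 1 group with a mean under 0.1 FPKM in the other. The filter was passed by 0 of 4 T cell markers and 0 of 6 endothelial markers, and by 1 of 5 for basal cells, 2 of 4 for neuroendocrine cells, 2 of 5 for macrophages and 3 of 7 for fibroblasts. The macrophage list summed to 116.5 to 121.5 FPKM in RSGL libraries and 42.2 to 42.7 FPKM in control libraries. Of that sum CD68, a lysosomal protein, made 116.1 to 121.1 FPKM in RSGL and 39.8 to 40.6 FPKM in control. CD14, the other marker that passed, went the other way, at 0.186 to 0.516 FPKM in RSGL and 2.01 to 2.22 FPKM in control. CD163 and MRC1 did not exceed 0.0633 FPKM in the 9 libraries. The basal list, here the factor SOX2, summed to 1.78 to 2.03 FPKM in RSGL and 8.04 to 9.23 FPKM in control. Their part in the results below was not tested.

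Each synthetase recognises its amino acid and the tRNAs that carry it, and spends ATP to join them. Human cells keep separate enzymes for the cytosol and for the mitochondrial matrix, all encoded in the nucleus, except that GARS and KARS serve both places. Several cytosolic enzymes (EPRS, IARS, LARS, MARS, QARS, RARS, KARS and DARS) are held in a multi-synthetase complex by the scaffold proteins AIMP1, AIMP2 and EEF1E1, and the others act outside it. When uncharged tRNA accumulates, the kinase GCN2 (EIF2AK4) phosphorylates eIF2 and translation of the transcription factor ATF4 increases. ATF4 acts with C/EBP partners on composite promoter elements, and cytosolic synthetase genes are among its known targets.

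Values are FPKM, which divide by library size and by the deposited gene length. Levels set beside each other between genes therefore depend on that length, which was not checked against the transcripts in use. FARSA and FARSB, for example, with lengths of 1853 and 4921 bases, had 2088 to 2248 and 1815 to 2009 fragments in control libraries. Their control means were 60.2 and 20.2 FPKM. In control libraries the cytosolic enzymes had a median of 57.3 FPKM over their group means, between 20.2 for FARSB and 96.4 for IARS. The mitochondrial enzymes had a median of 8.22 FPKM, between 1.67 for FARS2 and 72.6 for IARS2. In control the order of the cytosolic levels was IARS, TARS, NARS, MARS, AARS, GARS and KARS. Libraries of TARS and NARS overlapped, as did those of NARS, MARS and AARS and those of GARS and KARS, so the order within these is not set. Under RSGL the order began with AARS at 139.9 ± 4.39, GARS at 136.8 ± 4.57, MARS at 136.1 ± 2.27 and IARS at 127.0 ± 6.05 FPKM, and libraries of the first 3 overlapped, as did those of GARS and IARS. TARS stood at 87.5 ± 0.942 FPKM under RSGL, below NARS at 111.2 ± 4.32 FPKM.

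**Figure D1:**
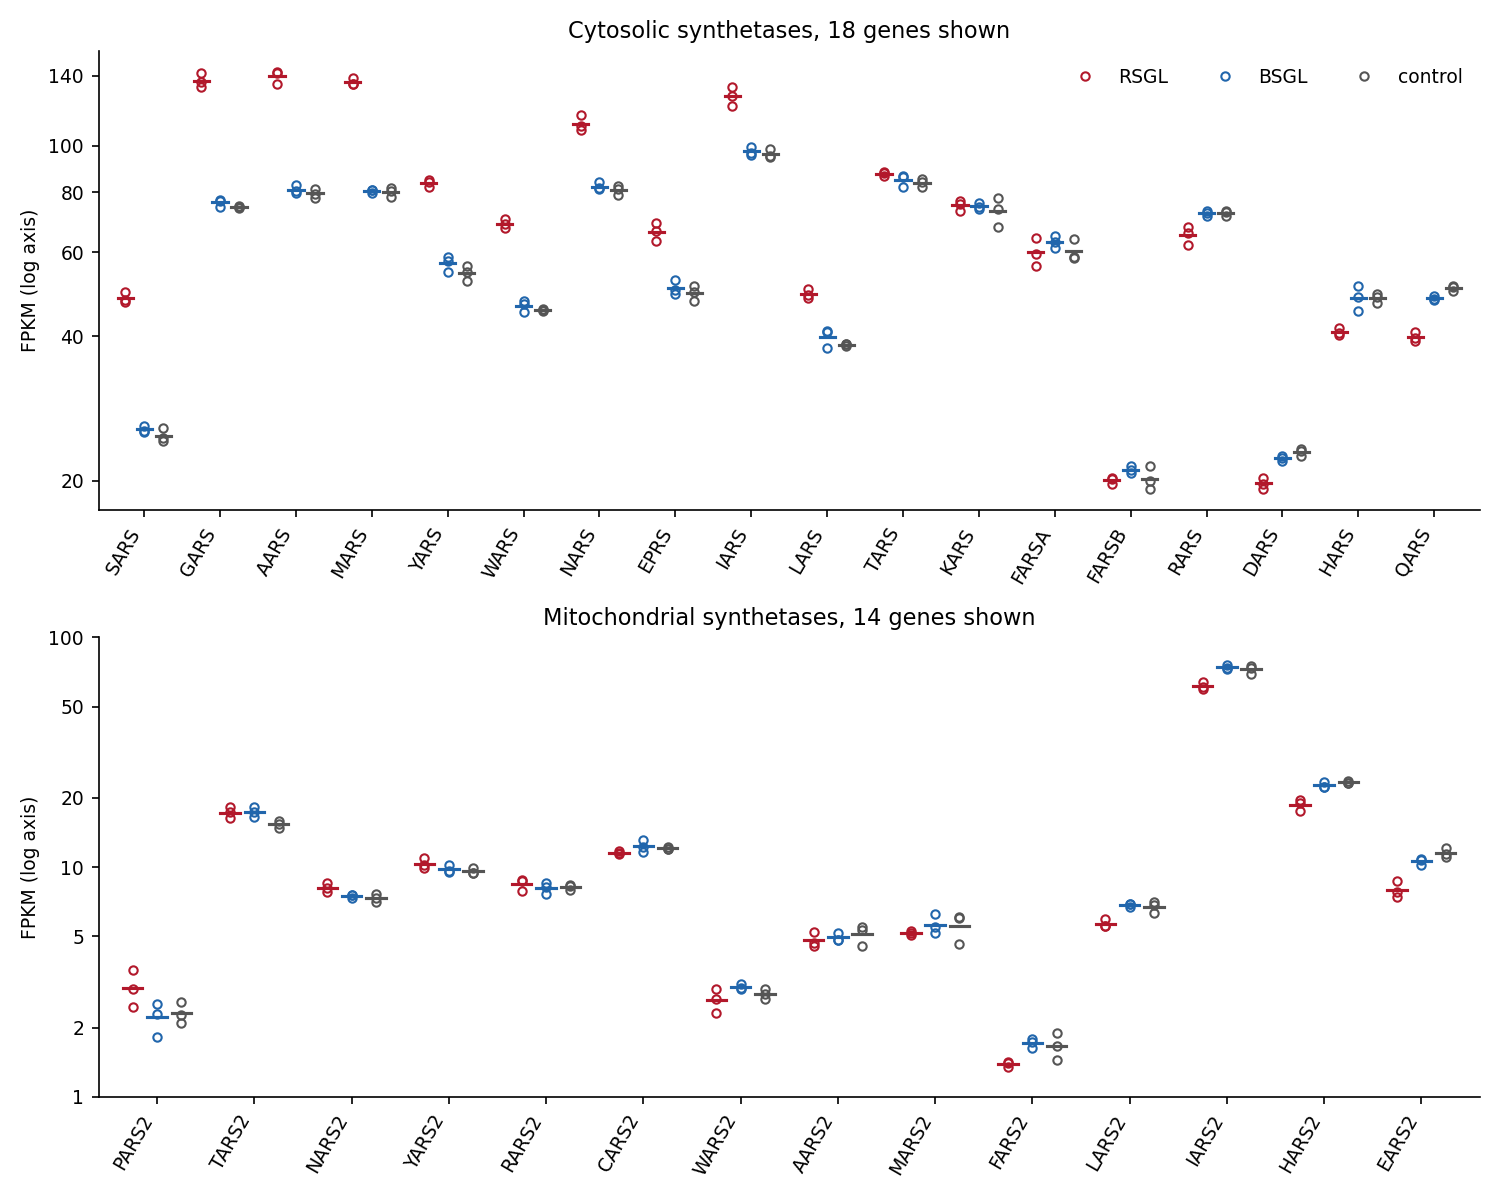
FPKM of 32 synthetases in every library (circles, log axis) with group means (bars), RSGL, BSGL and control from left to right within a gene, and genes sorted by their change under RSGL. The cytosolic genes on the left, from SARS to LARS, have their 3 RSGL libraries above the 6 others, while BSGL and control lie together.

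The comparison of RSGL with control asks which synthetase transcripts differed between these groups of libraries. Cytosolic enzymes rose in most cases and mitochondrial ones did not. By limma on log2(FPKM + 1), with Benjamini-Hochberg adjustment over 12775 genes and a call where the adjusted p was under 0.05, 10 of 18 cytosolic genes rose, 4 fell and 4 were not called. Of 15 mitochondrial genes 2 rose, 5 fell and 8 were not called. Together 21 of 33 members were called, against 54.8% of all tested genes. Among all tested genes 27.2% rose and 27.6% fell, so 55.6% of cytosolic members rising lies above that share and 33.3% of mitochondrial members falling is close to it. The median log2 change was 0.37 over the cytosolic genes, -0.07 over the mitochondrial genes and -0.00085 over all genes tested. The 3 RSGL libraries lay above the 3 control libraries for 13 of 33 members and below them for 11, against 30.4% above, 30.8% below and 61.2% in either direction among all tested genes. The filter on low values was passed by 33 of 33 members. In these bulk samples, fewer cells of a kind and less RNA per cell cannot be told apart.

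The summed level of the 18 cytosolic genes was 1375 ± 28.2 FPKM under RSGL and 1055 ± 19.4 FPKM in control (SD, n = 3 each). That of the 15 mitochondrial genes was 189.6 ± 4.45 FPKM under RSGL and 211.5 ± 2.02 FPKM in control. The RSGL sums were therefore above control for the cytosolic class and below it for the mitochondrial class, with no overlap of libraries in either. IARS2, the highest mitochondrial member, made 61.5 FPKM of the mitochondrial sum under RSGL and 72.6 FPKM in control, so that sum leans on this gene. As a share of all recovered fragments, cytosolic synthetases averaged 0.487% under RSGL and 0.366% in control.

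SARS, the seryl-tRNA synthetase, rose most. It measured 49.5, 47.3 and 47.6 FPKM under RSGL and 24.2, 24.5 and 25.7 FPKM in control, a log2 change of 0.93 (SE 0.0344, adjusted p = 2.27e-08 by limma). GARS, which charges glycine in both compartments, measured 141.8, 135.7 and 132.9 FPKM under RSGL and 74.1, 75.0 and 74.5 FPKM in control (0.87, SE 0.0315). Control libraries of GARS differed by under 1 FPKM, so the groups lay far apart. AARS, the alanyl enzyme, measured 142.9, 142.0 and 134.9 FPKM under RSGL and 79.4, 78.0 and 81.3 FPKM in control (0.81, SE 0.0332). MARS, the methionyl enzyme, which also charges the initiator tRNA, measured 138.7, 134.8 and 134.8 FPKM under RSGL and 80.5, 81.6 and 78.3 FPKM in control (0.76, SE 0.028). These 4 had group means 69.8 to 93.8% higher under RSGL, with no library of 1 group inside the range of the other. The MARS gene overlaps DDIT3, on the other strand, by 68 bases. DDIT3 rose as well, and fragments from those bases cannot be assigned without the strand setting.

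A second set rose by less. YARS, the tyrosyl enzyme, measured 85.1, 84.3 and 81.9 FPKM under RSGL and 52.2, 54.5 and 56.2 FPKM in control (log2 0.62, SE 0.0386). WARS, the tryptophanyl enzyme, which is also known as an interferon-induced gene, measured 67.3, 70.2 and 68.8 FPKM under RSGL and 45.5, 45.3 and 45.6 FPKM in control (0.59, SE 0.0309). NARS, for asparagine, measured 116.0, 107.7 and 109.8 FPKM under RSGL and 79.0, 81.2 and 82.6 FPKM in control (0.45, SE 0.0351). All 3 genes had RSGL libraries above every control library. EPRS, a fused enzyme for glutamate and proline, measured 68.9, 66.3 and 63.2 FPKM under RSGL and 47.5, 50.9 and 49.6 FPKM in control (0.41, SE 0.0427). IARS, for isoleucine, measured 132.9, 127.3 and 120.8 FPKM under RSGL and 95.0, 98.7 and 95.3 FPKM in control (0.39, SE 0.0381). LARS, for leucine and also a sensor of that amino acid, measured 50.2, 48.8 and 48.1 FPKM under RSGL and 38.2, 38.5 and 38.6 FPKM in control (0.34, SE 0.0369). Groups did not overlap in these 3 either, and the adjusted p of the 10 rising genes reached at most 3.29e-05 by limma.

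QARS, the glutaminyl enzyme, fell most among the cytosolic genes. It measured 40.9, 39.6 and 39.2 FPKM under RSGL and 49.9, 50.6 and 50.9 FPKM in control, a log2 change of -0.33 (SE 0.0286, adjusted p = 6.82e-06 by limma). HARS, for histidine, measured 41.7, 40.3 and 40.8 FPKM under RSGL and 47.1, 48.5 and 49.2 FPKM in control (-0.23, SE 0.0431). DARS, for aspartate, measured 19.7, 20.3 and 19.2 FPKM under RSGL and 22.5, 23.2 and 23.1 FPKM in control (-0.21, SE 0.033). In QARS, HARS and DARS each RSGL library lay below the lowest control library. RARS, for arginine, fell by 0.15 on the log2 scale (SE 0.0347, adjusted p = 0.00441 by limma). The falls were smaller than the larger rises, with group means 10.0 to 20.9% lower.

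The 4 cytosolic genes without a call were TARS, KARS, FARSA and FARSB. TARS, for threonine, measured 88.3, 86.5 and 87.8 FPKM under RSGL and 82.1, 84.0 and 85.2 FPKM in control, so its libraries did not overlap although its change of 0.06 did not pass (95% interval -0.01 to 0.13, adjusted p = 0.113 by limma). KARS, for lysine, stood at 75.1 ± 1.93 FPKM under RSGL and 73.1 ± 5.10 FPKM in control (interval -0.07 to 0.15). FARSA and FARSB encode both subunits of the phenylalanyl enzyme. Their intervals ran from -0.13 to 0.11 and from -0.11 to 0.08, and their groups overlapped. The intervals of these 4 genes exclude a change as large as the 0.34 of LARS, the smallest rise called among cytosolic genes.

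**Figure D2:**
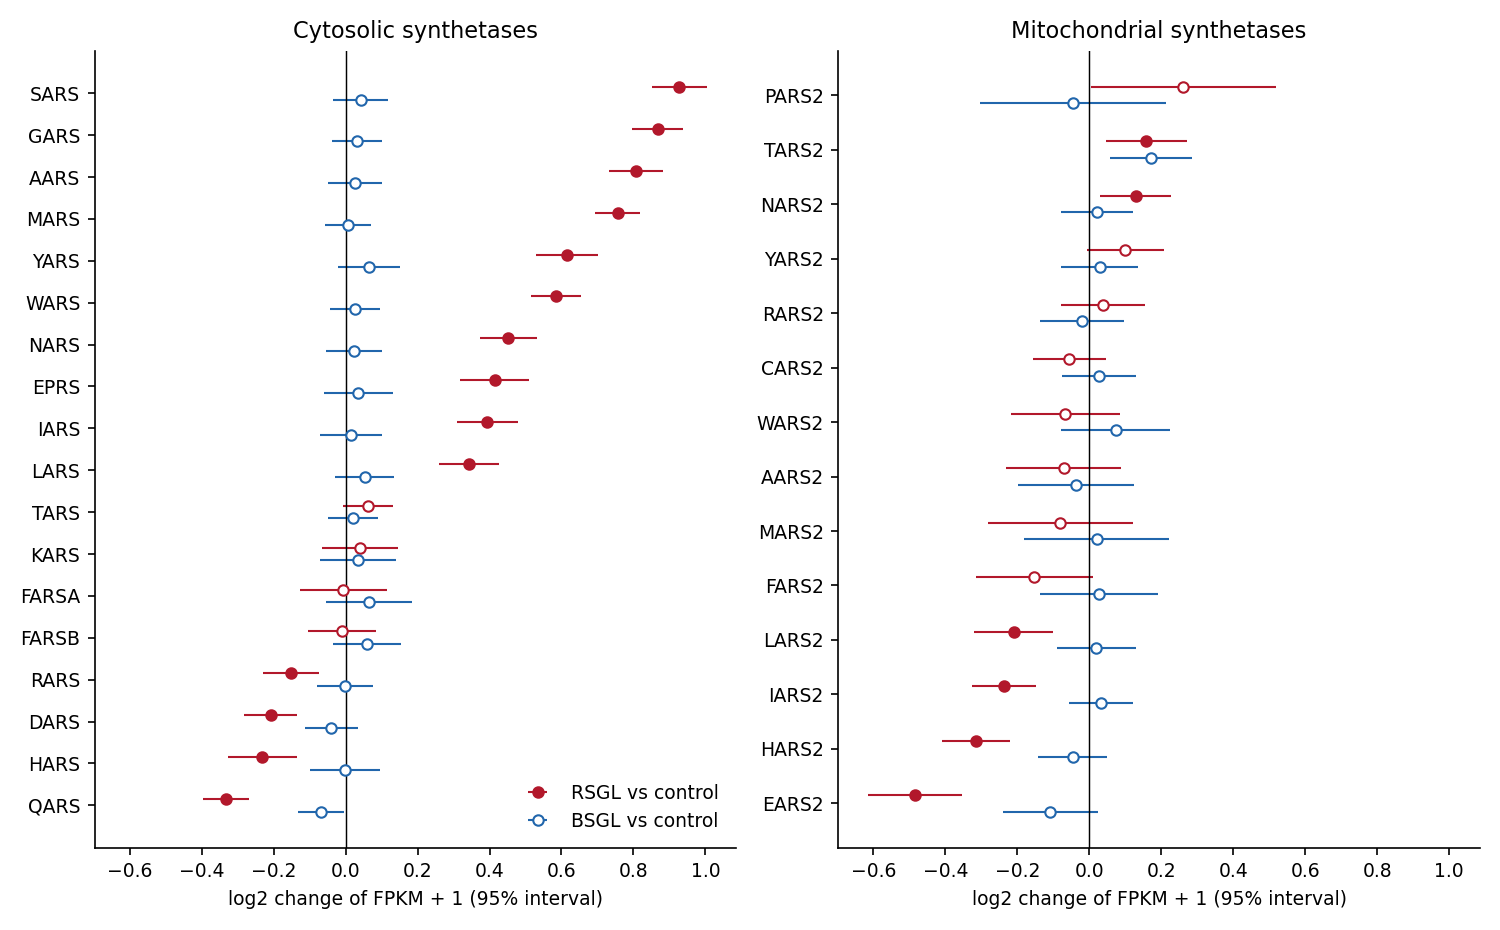
Log2 change of FPKM + 1 against control with 95% intervals, RSGL above BSGL within each gene, and filled points called at an adjusted p under 0.05. Under RSGL the cytosolic changes spread from -0.33 for QARS to 0.93 for SARS, and the BSGL points of these genes lie between -0.07 and 0.07.

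Members of the multi-synthetase complex moved in both directions. Of 8 members of the complex 4 rose (MARS, EPRS, IARS and LARS), 3 fell (QARS, DARS and RARS) and KARS was not called, with a median log2 change of 0.19, where 27.2% of all tested genes rose and 27.6% fell. Of 10 members outside it 6 rose (SARS, GARS, AARS, YARS, WARS and NARS), HARS fell and 3 were not called, with a median of 0.52. Within the complex MARS stood at 136.1 ± 2.27 and QARS at 39.9 ± 0.881 FPKM under RSGL, against 80.1 ± 1.69 and 50.5 ± 0.532 FPKM in control. Of the 3 scaffolds 0 were called. AIMP1 measured 11.3, 10.5 and 12.4 FPKM under RSGL and 11.2, 10.9 and 10.9 FPKM in control (interval -0.07 to 0.17). AIMP2 measured 27.1, 25.6 and 22.6 FPKM under RSGL and 27.7, 29.7 and 26.5 FPKM in control (interval -0.32 to 0.01), and EEF1E1 had an interval of -0.11 to 0.45.

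Promoter sequence was read for the synthetases, since the rising genes moved together and ATF4 is known to act on an element with the core TGATGNAA. Windows from RefSeq (GRCh38.p14), 250 bases before to 50 after an annotated start, were found by gene ID for 28 of 33 members, 8 of them with several starts. LARS, YARS, DARS and AARS2 had no entry. The core was searched on both strands as the 1 motif tried. It was present for 7 of 28 synthetases, for 2.64% of the 9544 tested genes with a window, and in 3.62% of all 35116 windows. By call, 5 of 8 rising cytosolic genes held it, 0 of 3 falling ones, and 1 of 4 without a call, TARS. Of the mitochondrial genes, 0 of 2 rising, 0 of 4 falling and 1 of 7 without a call, YARS2, held it. Both TARS and YARS2 thus held the core without a call, and SARS, WARS and EPRS rose with no match in their windows. A match of letters is a description and not evidence of binding.

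Windows of 6 of these genes, each with 1 match, are shown so that the core can be seen in place, ending 30 bases after the start, 5′ to 3′ on the gene's strand, with the match in capitals. The match read TTGCATCA, the reverse complement of TGATGCAA, in MARS, IARS and TARS, and TTTCATCA in GARS. It read TGATGCAA on the gene's own strand in NARS and TGATGGAA in YARS2. Positions are counted from the annotated start used for the window shown, which can differ from the first base of the gene. GARS and TARS had 2 windows each, of which 1 held a match. The first base of the match was 33 bases before the start in GARS, 13 in IARS, 4 in MARS and 197 in YARS2. In TARS it was base 3 and in NARS base 15 counted from the start. The regions are chr7:30594628-30594907 on the plus strand for GARS and chr12:57487818-57488097 on the plus strand for MARS. Those of IARS, chr9:92293668-92293947, and NARS, chr18:57621807-57622086, are on the minus strand. That of TARS, chr5:33440715-33440994, is on the plus strand and that of YARS2, chr12:32755868-32756147, on the minus strand.
GARS: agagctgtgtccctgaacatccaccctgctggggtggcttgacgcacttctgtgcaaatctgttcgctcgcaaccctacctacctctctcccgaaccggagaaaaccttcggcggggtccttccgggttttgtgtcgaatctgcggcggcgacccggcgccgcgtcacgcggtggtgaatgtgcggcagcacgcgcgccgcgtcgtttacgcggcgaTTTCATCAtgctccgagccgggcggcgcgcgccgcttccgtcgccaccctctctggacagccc
MARS: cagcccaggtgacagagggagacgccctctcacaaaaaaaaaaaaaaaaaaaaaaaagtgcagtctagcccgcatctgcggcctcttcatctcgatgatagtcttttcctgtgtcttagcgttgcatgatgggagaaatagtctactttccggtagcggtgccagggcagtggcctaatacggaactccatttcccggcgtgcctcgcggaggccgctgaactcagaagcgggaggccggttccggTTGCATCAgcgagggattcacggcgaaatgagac
NARS: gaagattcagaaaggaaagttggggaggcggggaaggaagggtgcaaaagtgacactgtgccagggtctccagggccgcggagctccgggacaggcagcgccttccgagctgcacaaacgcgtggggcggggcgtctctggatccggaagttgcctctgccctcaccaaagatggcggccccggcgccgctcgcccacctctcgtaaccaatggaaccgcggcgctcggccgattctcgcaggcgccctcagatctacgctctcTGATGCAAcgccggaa
IARS: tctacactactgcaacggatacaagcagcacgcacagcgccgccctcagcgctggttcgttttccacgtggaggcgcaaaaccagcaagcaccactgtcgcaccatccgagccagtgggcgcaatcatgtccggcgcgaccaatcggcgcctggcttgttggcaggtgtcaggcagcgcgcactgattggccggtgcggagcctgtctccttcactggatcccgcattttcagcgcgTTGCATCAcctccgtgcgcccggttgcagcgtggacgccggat
TARS: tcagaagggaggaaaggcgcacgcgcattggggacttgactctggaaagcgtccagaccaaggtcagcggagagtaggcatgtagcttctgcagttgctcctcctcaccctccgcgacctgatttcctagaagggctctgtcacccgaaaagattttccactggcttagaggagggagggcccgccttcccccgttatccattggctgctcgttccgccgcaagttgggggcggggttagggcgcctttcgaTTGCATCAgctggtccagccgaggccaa
YARS2: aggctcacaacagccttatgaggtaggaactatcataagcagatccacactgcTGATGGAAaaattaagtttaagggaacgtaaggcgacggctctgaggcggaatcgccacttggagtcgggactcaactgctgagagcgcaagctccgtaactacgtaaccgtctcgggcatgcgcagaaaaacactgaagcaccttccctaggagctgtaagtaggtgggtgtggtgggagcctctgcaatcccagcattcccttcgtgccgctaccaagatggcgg

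Among the mitochondrial enzymes 5 fell and 2 rose under RSGL. EARS2, the glutamyl enzyme of mitochondria, which also provides the precursor of glutaminyl-tRNA there, measured 8.75, 7.79 and 7.41 FPKM under RSGL and 11.1, 11.4 and 12.1 FPKM in control. Its log2 change of -0.48 (SE 0.0586, adjusted p = 7.3e-05 by limma) was the largest fall among the 33 members. HARS2, for histidine, measured 19.5, 17.6 and 18.9 FPKM under RSGL and 23.7, 23.3 and 23.3 FPKM in control (-0.31, SE 0.0426). HARS2 and HARS overlap by 302 bases on opposite strands, so fragments there cannot be assigned without the strand setting, and both fell. IARS2, for isoleucine, measured 63.8, 61.0 and 59.6 FPKM under RSGL and 69.4, 73.3 and 75.1 FPKM in control (-0.24, SE 0.0394). LARS2, for leucine, measured 5.93, 5.56 and 5.56 FPKM under RSGL and 6.84, 6.29 and 7.06 FPKM in control (-0.21, SE 0.0487). The RSGL libraries lay below the control libraries in each of EARS2, HARS2, IARS2 and LARS2.

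TARS2 and NARS2 were the mitochondrial genes that rose, and both calls depended on single libraries. TARS2, for threonine, measured 16.3, 18.2 and 17.4 FPKM under RSGL and 15.4, 15.8 and 14.9 FPKM in control (log2 0.16, SE 0.0506, adjusted p = 0.023 by limma). NARS2, for asparagine, measured 8.51, 8.08 and 7.81 FPKM under RSGL and 7.09, 7.65 and 7.33 FPKM in control (0.13, SE 0.0445, adjusted p = 0.0327 by limma). Their groups did not overlap, yet neither call was kept without control replicate 1 (adjusted p = 0.0516 for TARS2 and 0.111 for NARS2 by limma), nor without control replicate 3 (0.0737 and 0.0732) or RSGL replicate 2 (0.0862 and 0.0639). TARS2 also lost its call without RSGL replicate 3 (adjusted p = 0.0549) and NARS2 without RSGL replicate 1 (adjusted p = 0.11). PARS2, for proline, measured 2.45, 3.56 and 2.96 FPKM under RSGL and 2.09, 2.58 and 2.27 FPKM in control, which overlapped and did not pass (0.26, interval 0.00 to 0.52, adjusted p = 0.0798 by limma). Without RSGL replicate 1 it passed (0.36, adjusted p = 0.0257). With 96 to 152 fragments in these 6 libraries PARS2 was the least precisely measured member.

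The other mitochondrial genes without a call were YARS2, RARS2, CARS2, WARS2, AARS2, MARS2 and FARS2, with log2 changes between -0.15 and 0.10. FARS2, the single-chain phenylalanyl enzyme of mitochondria, measured 1.43, 1.41 and 1.35 FPKM under RSGL and 1.67, 1.45 and 1.89 FPKM in control, with RSGL below control in every library and no call (adjusted p = 0.104 by limma). Without control replicate 2 it passed (adjusted p = 0.0378), and MARS2 passed without control replicate 3 (-0.19, adjusted p = 0.0444). CARS2, for cysteine, averaged 11.6 ± 0.170 FPKM under RSGL and 12.1 ± 0.187 FPKM in control, also with no overlap and no call. Groups overlapped in the other 5.

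Enzymes for the same amino acid in the cytosol and the mitochondria can be set side by side for 14 amino acids, in 15 pairs, with EPRS entering for glutamate and proline and the FARSA and FARSB subunits for phenylalanine. The cytosolic gene rose while its mitochondrial partner fell in 3 pairs, EPRS with EARS2, IARS with IARS2 and LARS with LARS2. It rose with no call for the partner in 5 pairs, both rose in 1 (NARS with NARS2), and both fell in 2, among them HARS with HARS2. The ratio of cytosolic to mitochondrial FPKM was above every control library in all 3 RSGL libraries for 10 pairs, below for 1 and overlapping for 4. The 10 include HARS with HARS2, where both fell, and FARSB with FARS2, where neither was called. Under BSGL the ratio was above control for 1 pair and below for 2. Among all tested genes 27.2% rose and 27.6% fell under RSGL, and 61.2% had RSGL and control libraries apart. No share over other pairs of genes was computed. For glutamate, EPRS to EARS2, the ratio was 8.30 ± 0.369 under RSGL and 4.27 ± 0.187 in control (SD, n = 3 each). For alanine it was 29.2 ± 2.29 under RSGL and 15.7 ± 1.97 in control, and for methionine 26.3 ± 0.663 under RSGL and 14.6 ± 2.03 in control. For isoleucine it was 2.07 ± 0.0320 under RSGL and 1.33 ± 0.0528 in control.

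**Figure D3:**
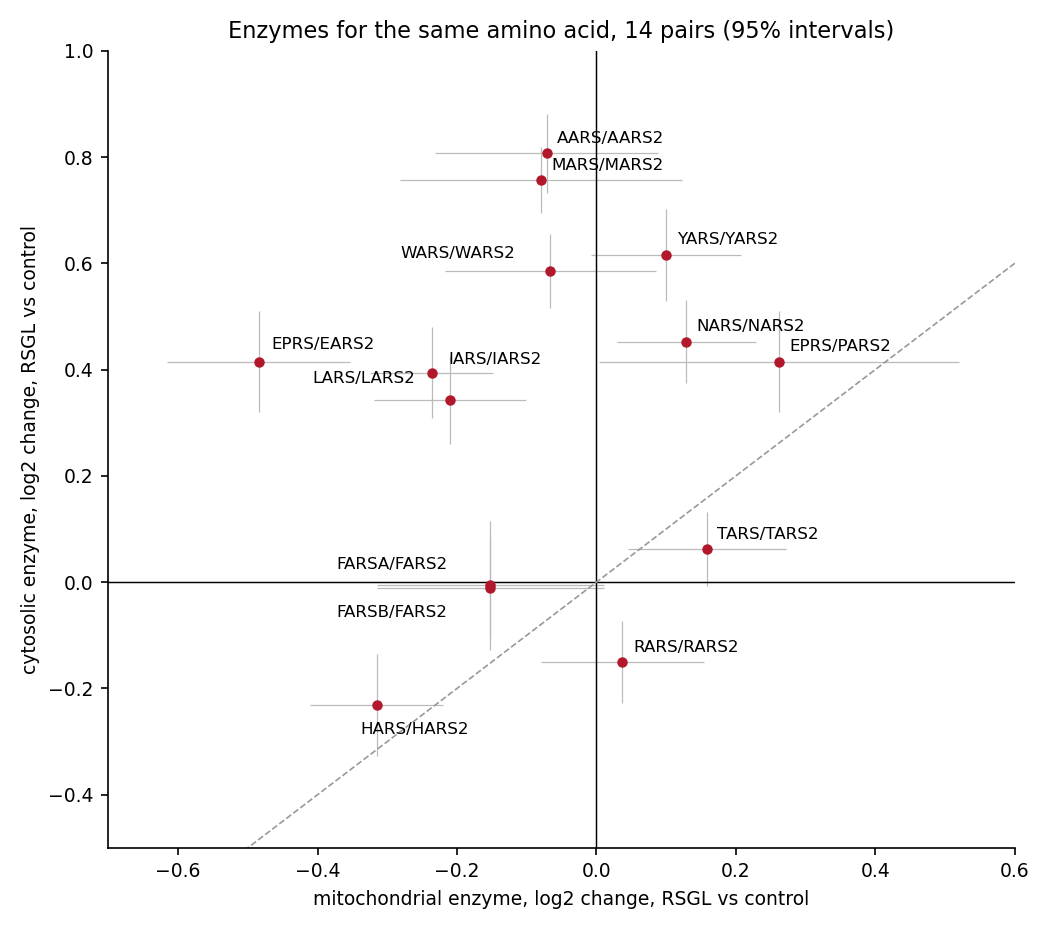
Log2 change of FPKM + 1 under RSGL against control for the mitochondrial enzyme (x) and the cytosolic enzyme (y) of the same amino acid, with 95% intervals and a dashed line of equal change. Of the 14 pairs plotted 9 lie above 0.3 on the cytosolic axis, while the mitochondrial values of those pairs run from -0.48 for EARS2 to 0.26 for PARS2.

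BSGL was compared with control after the same 24 h. Limma called 0 of 33 synthetases, against 0.0861% of all genes tested. At an unadjusted p under 0.05 there were 2, TARS2 and QARS, against 6.71% of all genes tested, and limma-voom on recovered fragments also called 0. TARS2 measured 18.3, 16.6 and 17.4 FPKM under BSGL and 15.4, 15.8 and 14.9 FPKM in control (log2 0.17, SE 0.0506, adjusted p = 0.469 by limma), with every BSGL library above control. QARS measured 48.6, 47.8 and 47.9 FPKM under BSGL and 49.9, 50.6 and 50.9 FPKM in control, with every BSGL library below control (-0.07, SE 0.0286, adjusted p = 0.709). EARS2 measured 10.3, 10.9 and 10.8 FPKM under BSGL and 11.1, 11.4 and 12.1 FPKM in control (-0.11, adjusted p = 0.831). Every BSGL library of EARS2 lay below control, and 4 of 33 members had groups apart, against 12.8% of all genes tested.

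Each interval bounds the difference between BSGL and control for its own gene, as far as variation among these libraries measures it. Together they are not a joint bound. Over the 18 cytosolic genes the 95% intervals lay between -0.13 and 0.19, and over the 15 mitochondrial genes between -0.30 and 0.29. The 10 genes that rose under RSGL had BSGL means 0.449 to 4.74% above control, and none had its BSGL and control libraries apart. SARS, for example, measured 25.4, 25.3 and 26.0 FPKM under BSGL against 24.2, 24.5 and 25.7 FPKM in control (interval -0.03 to 0.12). The summed cytosolic level was 1071 ± 11.6 FPKM under BSGL and 1055 ± 19.4 FPKM in control, with libraries that overlapped. The mitochondrial sum was 216.1 ± 2.01 FPKM under BSGL and 211.5 ± 2.02 FPKM in control. Its BSGL libraries, at 214.5 to 218.3 FPKM, all lay above the control libraries, at 209.2 to 212.9 FPKM.

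RSGL was set directly against BSGL at 10 µM and 24 h, the third of 3 comparisons. Limma called 20 of 33 members, against 54.0% of all genes tested, with 11 higher and 9 lower under RSGL, where 26.5% of all genes tested were higher and 27.5% lower. The 10 cytosolic genes that rose against control were higher than under BSGL too, and QARS, HARS, DARS and RARS were lower. SARS was at 48.1 ± 1.19 FPKM under RSGL and 25.6 ± 0.362 FPKM under BSGL (log2 0.89, SE 0.0344, adjusted p = 3.3e-08), and LARS, the smallest of the 10, differed by 0.29 (SE 0.0369, adjusted p = 0.00011). EARS2 was at 7.98 ± 0.688 FPKM under RSGL and 10.6 ± 0.334 FPKM under BSGL (-0.38, SE 0.0586, adjusted p = 0.000421). HARS2, IARS2 and LARS2 were lower as well, by 0.23 to 0.27 on the log2 scale. PARS2 was the mitochondrial gene called higher, at 2.99 ± 0.555 FPKM under RSGL and 2.22 ± 0.369 FPKM under BSGL (0.31, adjusted p = 0.0457), with libraries that overlapped. Its call was lost without RSGL replicate 2 or 3, BSGL replicate 1 or 3, or any 1 control library, with adjusted p between 0.0503 and 0.165 by limma. NARS2 passed without RSGL replicate 3 (adjusted p = 0.0424). For TARS2 the compounds did not differ detectably (-0.01, interval -0.13 to 0.10), and for NARS2 the interval was 0.01 to 0.21 with an adjusted p of 0.0675. KARS had an interval of -0.10 to 0.11. The comparisons share libraries, so their counts are not independent of each other.

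Genes that work with the synthetases were taken from lists written from general knowledge, with earlier results of these data known. Delivery factors bring charged tRNA to the ribosome, and 3 of 5 tested rose under RSGL and 1 fell, where 27.2% of all tested genes rose and 27.6% fell. EEF1A2, an isoform of the cytosolic carrier, measured 65.5, 67.4 and 67.0 FPKM under RSGL and 46.7, 44.5 and 46.6 FPKM in control (log2 0.53, SE 0.0308, adjusted p = 4.38e-07 by limma). EEF1A1, the main carrier, averaged 2232 FPKM under RSGL and 1735 FPKM in control (0.36, SE 0.0318), a level made uncertain by its many processed copies. TSFM, the exchange factor of the mitochondrial carrier, averaged 17.7 FPKM under RSGL and 22.6 FPKM in control and fell by 0.33 (SE 0.057). TUFM, the mitochondrial carrier itself, was not called.

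Of 12 tested partners of charging, 4 rose and 2 fell, beside 27.2% and 27.6% of all genes. DTD1, which removes D-amino acids from tRNA, measured 26.8, 25.9 and 27.0 FPKM under RSGL and 20.3, 19.4 and 20.8 FPKM in control (0.38, SE 0.0385). GATC, a subunit of the mitochondrial amidotransferase that converts glutamyl-tRNA made by EARS2 to glutaminyl-tRNA, measured 9.85, 9.53 and 9.31 FPKM under RSGL and 12.1, 12.9 and 13.4 FPKM in control (-0.38, SE 0.0517). QRSL1, the catalytic subunit of that enzyme, fell too (-0.21, SE 0.0488), while GATB, its remaining subunit, had a log2 value of 0.11 and was not called (adjusted p = 0.171 by limma).

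Of 17 tested genes of tRNA maturation and export 3 rose and 6 fell, beside 27.2% and 27.6% of all genes, with a median of -0.07. XPOT, the nuclear exporter of tRNA, measured 52.4, 49.5 and 49.0 FPKM under RSGL and 31.5, 33.3 and 32.8 FPKM in control (log2 0.61, SE 0.0354, adjusted p = 4.06e-07 by limma). POP1, a subunit of RNase P, measured 3.91, 4.18 and 3.71 FPKM under RSGL and 6.87, 6.59 and 6.49 FPKM in control (-0.63, SE 0.0513). TSEN15, of the tRNA splicing endonuclease, averaged 14.9 FPKM under RSGL and 9.70 FPKM in control (0.57, SE 0.0565). Of 17 tested genes of RNA polymerase III and its factors 5 rose and 8 fell, beside the same 27.2% and 27.6%, with a median of -0.10. GTF3C6, a subunit of the initiation factor TFIIIC, averaged 49.1 FPKM under RSGL and 67.0 FPKM in control (-0.44, SE 0.0743). POLR3GL and POLR3G, alternative subunits of the polymerase, rose by 0.43 (SE 0.108) and 0.31 (SE 0.0528). Between BSGL and control, limma called 0 genes of these lists.

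The list of eIF2 kinases and the ATF4 arm had 11 of 21 genes higher and 4 lower under RSGL, where 27.2% of all tested genes were higher and 27.6% lower, with a median of 0.20. TRIB3, a pseudokinase, averaged 119.4 FPKM under RSGL and 21.8 FPKM in control (log2 2.40), and DDIT3, the factor CHOP, measured 62.4, 60.5 and 61.5 FPKM under RSGL and 12.1, 14.3 and 15.7 FPKM in control (2.06). PPP1R15A, which directs dephosphorylation of eIF2, averaged 113.0 FPKM under RSGL and 27.6 FPKM in control (adjusted p = 2.27e-09 by limma). ATF4 itself measured 189.7, 201.8 and 209.8 FPKM under RSGL and 106.1, 108.8 and 117.1 FPKM in control (0.85). EIF2AK4, the kinase that senses uncharged tRNA, was not called (0.05, interval -0.06 to 0.15). Of the other eIF2 kinases, EIF2AK3 measured 4.66, 4.23 and 4.28 FPKM under RSGL and 3.06, 2.93 and 2.69 FPKM in control. EIF2AK1 measured 36.1, 34.6 and 34.8 FPKM under RSGL and 42.7, 41.2 and 43.2 FPKM in control. EIF2AK2 measured 9.26, 8.98 and 8.93 FPKM under RSGL and 9.98, 10.8 and 10.1 FPKM in control. SARS, the synthetase that rose most, had a smaller log2 change than TRIB3 and DDIT3 and a larger one than ATF4.

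**Figure D4:**
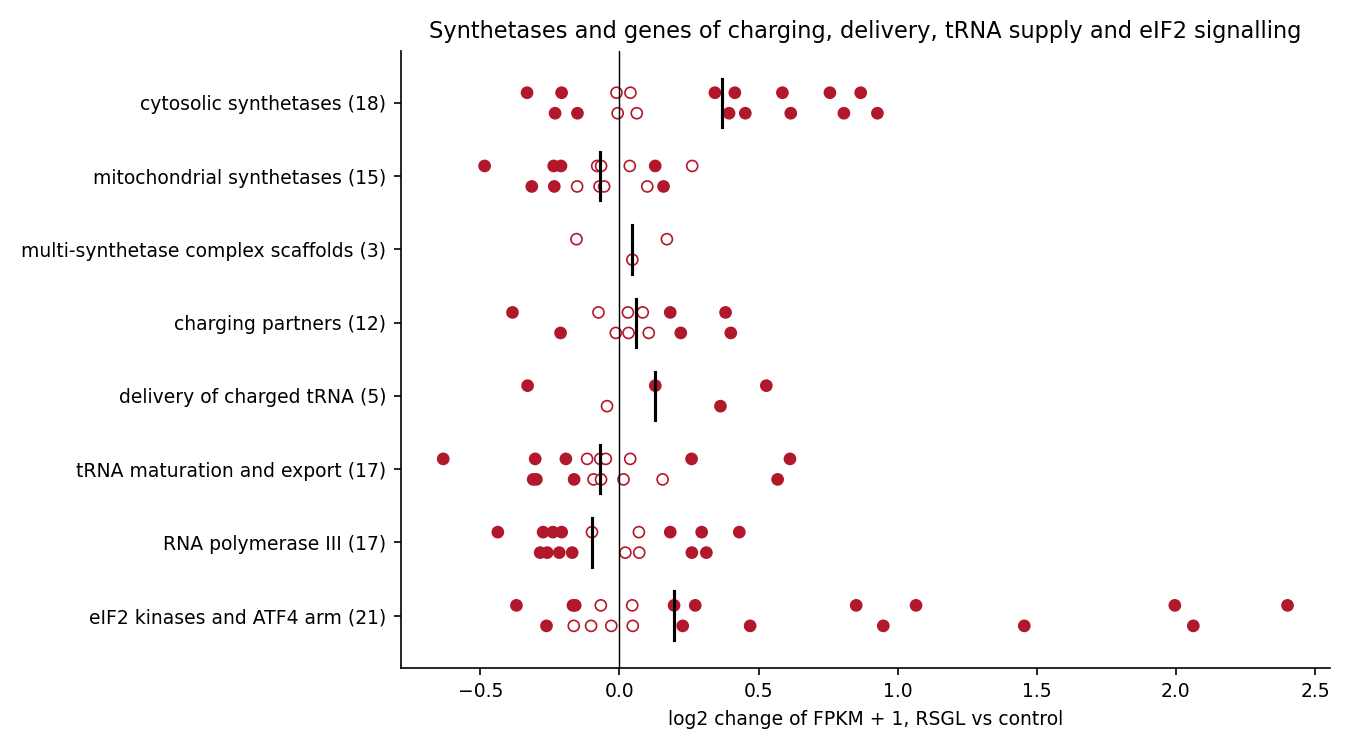
Log2 change of FPKM + 1 under RSGL against control for each tested gene of the synthetase classes and the related lists, with the number of genes in brackets, filled points called at an adjusted p under 0.05 and black bars at the medians. The median of the cytosolic synthetases is 0.37, and those of the tRNA maturation and RNA polymerase III lists are -0.07 and -0.10.

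Positions on GRCh38, as the table gives them, are listed for the genes with the largest rises under RSGL, and for the largest cytosolic and mitochondrial falls. SARS (gene ID 6301) lies on chromosome 1 at 109213893 to 109238182, GARS (2617) on chromosome 7 at 30594735 to 30634033 and AARS (16) on chromosome 16 at 70252295 to 70289552. MARS (4141) lies on chromosome 12 at 57487953 to 57516655, YARS (8565) on chromosome 1 at 32775237 to 32818032 and WARS (7453) on chromosome 14 at 100333788 to 100376343. QARS (5859) lies on chromosome 3 at 49095932 to 49105129 and EARS2 (124454) on chromosome 16 at 23522013 to 23557375. The YARS gene overlaps S100PBP on the other strand by 1266 bases, a gene that did not exceed 6.06 FPKM.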

How the data were processed

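RNA sequencing values came from 1 deposited table of FPKM per gene, as made by the authors and named per the file headers. Per the submitters' processing notes, the tools were DESeq2 1.16.1, featureCounts 1.5.0-p3 and HISAT2 2.0.5, with no role given. The labels' protocols name TRIzol extraction and a NEBNext Ultra library kit. Gene length, FPKM and sequence accessions of GRCh38 stand side by side in the table, and no source used here states the strand setting. FPKM times gene length came within 0.01 of whole multiples of 1 step for 100% of values under 300 fragments in each library, so fragments were recovered.

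Genes were tested where 3 or more libraries had 1 FPKM or more. Limma 3.58.1 (R 4.3.3, statmod 1.5.0) was fitted to log2(FPKM + 1) over all 9 libraries, with a trend and robust moderation, and p-values were adjusted over 12775 genes by Benjamini-Hochberg. The pseudocount understates fold changes of low genes. The script was tested on simulated data. No count model was fitted other than limma-voom on recovered fragments. Replicate pairs differed beyond sampling noise, with a chi-square per degree of freedom of 4.13 or more.

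Some items are not reported here, and counts cover the whole lists. Members and lists were chosen with earlier results of these data known. Of 81 listed partner genes 76 had a row on a chromosome, and AARSD1 failed the filter. Values per library are given for members called under RSGL, up to 12 higher and 8 lower, for those with the smallest p under BSGL, and for up to 3 called genes per partner list, with further genes named as examples after their values were seen. Alternatives changed the pseudocount, filter, scaling, model, genes, test and libraries.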

Additional observations from a re-analysis of the deposited data

How the results depend on the processing

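The counts of cytosolic genes that rose and fell under RSGL stayed at 10 and 4 in 20 of 21 alternatives, and quantile scaling added TARS to the risers (adjusted p = 0.0431). Mitochondrial falls numbered 5 or 6 throughout, and total calls under RSGL ran from 19 to 22. Mitochondrial rises under RSGL against control, 2 in the reported fit, were 0 with no filter or a common FPKM sum and 1 with only the groups compared, and 0 to 2 when libraries were left out in turn. Against BSGL, the 1 mitochondrial rise became 0 with no filter, quantile scaling, a common median, no trend and robust options, or only the groups compared, and 0 to 1 when libraries were left out. With a mean of at least 5 FPKM it was 0 because PARS2 was not tested. The cause of the other losses was not tested. BSGL against control had 0 calls in every alternative. Log2 changes were followed across alternatives for all members in RSGL against control. In RSGL against BSGL only members called under RSGL were followed, and in BSGL against control only those with the smallest p. Among the values followed, signs turned for 4 that were not called. Against control, FARSA reached 0.0055 and FARSB 0.00067 under quantile scaling. With libraries left out, FARSA ran from -0.057 to 0.041, FARSB from -0.046 to 0.032 and KARS from -0.014 to 0.085, and TARS2 against BSGL from -0.0501 to 0.027. Replicate numbers were not treated as pairs in the reported fit. Same-numbered RSGL and control libraries had correlations of deviations of 0.0156, 0.046 and 0.121, and 4 of 6 libraries correlated best with their own number. Between BSGL and control 2 of 6 did so, and between RSGL and BSGL 0 of 6. These values do not settle whether the numbers pair the samples. With a replicate block 21 synthetases were called against control, NARS2 being lost (adjusted p = 0.0582) and PARS2 gained (adjusted p = 0.0081), and against BSGL 20. Scalings moved the median of all genes by under 0.1. Depth limits PARS2, WARS2 and FARS2 most, with 96 to 264 fragments per RSGL or control library.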

Other observations

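The synthetase rows on alternate loci or patch sequences gave values that varied within groups. CARS, the cysteinyl enzyme, measured 4.58, 14.5 and 9.06 FPKM under RSGL, 5.69, 6.39 and 4.46 FPKM under BSGL and 4.53, 2.51 and 7.10 FPKM in control. SARS2, the mitochondrial seryl enzyme, measured 5.99, 3.55 and 1.49 FPKM under RSGL, 0.375 to 5.04 FPKM under BSGL and 2.87, 5.69 and 8.52 FPKM in control. VARS2 did not exceed 0.188 FPKM, and VARS, the cytosolic valyl enzyme, had at most 3 fragments in a library. TARSL2, a further threonyl-tRNA synthetase gene outside the symbol pattern, ran from 2.08 to 2.54 FPKM over the 9 libraries.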
